A study of Mus musculus with 8 samples.

Results

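DNA methylation was examined at 7 genes that encode transcription factors of the B lineage: Pax5, Ebf1, Spib, Pou2af1, Pou2f2, Irf8 and Bcl11a. They were taken by name from the 21670 protein-coding genes with an annotated start on the autosomes and X, each with its gene body and 10 kb to either side in the GENCODE M21 annotation of the mouse genome build GRCm38. The rule itself uses no methylation level, although the rule and the genes were chosen with earlier results of these data known. Cells came from the spleen of C57BL/6J mice, an inbred strain, at 6 to 8 weeks of age. The B cells were CD43- B cells, which are resting, and the T cells were naive CD4+ T cells sorted as CD62L high, CD44 low and CD25 negative. The 8 samples fell into 4 groups of 2, by sex and cell type, each sample a pool of several animals, and no group carried a mutation or received a treatment. Each group had 1 file of methylation calls, and the labels do not say whether it merges both samples, so cell types were compared over 2 files each, 1 female and 1 male, with no replicate within a sex.

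In background, a B cell is specified from a lymphoid progenitor by a cascade in which the EBF1 and PAX5 proteins, factors that bind DNA, switch on B cell genes and hold back those of other lineages. SPIB, of the ETS family, and IRF8, an interferon regulatory factor, bind composite DNA sites with partners of each other's families. POU2F2, also called OCT-2, binds the octamer sequence of immunoglobulin promoters, and POU2AF1, also called OBF-1 or OCA-B, is its coactivator and acts through it. BCL11A is a zinc finger repressor needed early in lymphoid development. Methylation of CpGs is usually low over active promoters and enhancers and high elsewhere, and promoters rich in CpGs are often unmethylated whether or not the gene is expressed. Expression was not measured in these files.

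The assay was whole-genome bisulfite sequencing, in which unmethylated cytosines are converted and the methylation level of a CpG is the percentage of its reads left unconverted. 5-methylcytosine and 5-hydroxymethylcytosine are read alike. Mean depth per autosomal CpG was 14.6 reads in the female B, 17.7 in the female T, 16.1 in the male B and 17.3 in the male T file, so the B files were the shallower of each pair. Levels are percentages over pooled reads of the CpGs of a region, differences are B minus T in percentage points, and CpGs with at least 5 reads in all 4 files were used. Windows of 1 kb with at least 3 such CpGs were tested with a quasi-binomial model over all 2018320 windows of the genome, and a window was called where the adjusted p (Benjamini-Hochberg) was under 0.05 and B and T differed by 20 points or more. With 1 residual degree of freedom, the model borrowed its spread from the 1190079 windows with enough reads of each kind (at least 5 expected in every file), so very small p-values overstate certainty and the levels of the 4 files are given beside each result. At the start regions of marker genes, the B cell genes Cd79a, Cd79b, Ms4a1 and Cd22 were each called lower in B, with 0 to 34.7% in B and 29.7 to 93.4% in T. All 5 T cell genes (Cd3e, Cd3d, Cd3g, Lck, Cd4) were called lower in T, with 56.1 to 96.6% in B and 1.92 to 16.4% in T. No library went against its label. Of 5 markers of other cells, the CD8 genes Cd8a and Cd8b1 were also called lower in T, and Csf1r, Itgam and Klrb1c were not called. Small admixtures of other cells and partial methylation within the labelled cells cannot be told apart in bulk DNA.

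All 7 genes held sequence that was less methylated in B than in T cells in both sexes. Across their loci 104 of 937 tested windows (11.1%) were called, against 2.08% of all windows. Of these, 87 (9.28%) were lower in B, where 0.913% of all windows were, and 17 (1.81%) were higher in B, where 1.16% of all windows were. Each gene had at least 1 window in either direction, although the only higher window of Spib, chr7:44542001-44543000, overlaps the outer edge of its locus with most of its CpGs outside and fell to 19.97 points with CpGs of 10 or more reads. The only higher window of Bcl11a also fell under the threshold in several alternatives, given below. The 87 lower windows had median levels of 41.9% in the female B and 36.7% in the male B file, against 87.2% and 88.7% in the female and male T files. The difference had the same sign in both sexes in 87 of 87 of these and in 17 of 17 of the higher windows. Windows were called on the mean of both sexes, so this agreement is largely set by the call and is a description. The median difference over all tested windows of the 7 loci was -0.43 points, and over all windows of the genome 0.05 points, which is close to 0 in both. Just inside the threshold lay a window of Ebf1 at -20.0 points and just outside it one of Bcl11a at -19.7. With limma on log2 ratios 70 of 937 windows of the 7 genes were called, 64 of them lower in B, against 20613 of 2018320 over the genome. When the spread was taken from all windows, 0 were called here or anywhere. The windows this adds had under 5 expected methylated or unmethylated reads in some file, as nearly fully methylated or unmethylated windows can at ordinary depth. In that setting 327 of 937 had an unadjusted p under 0.05 (34.9%), against 9.84% of all windows.

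**Figure D1:**
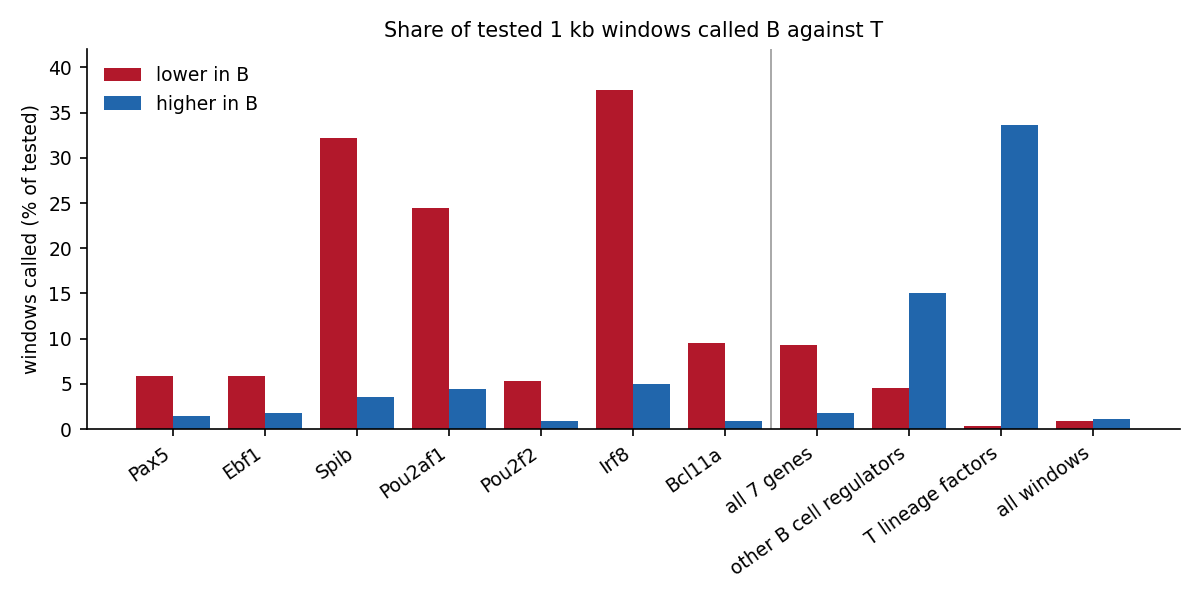
Percentage of tested 1 kb windows called lower in B (red bars) or higher in B (blue bars) at each of the 7 loci, over the 7 genes together, over 12 other regulators of B cells, over 7 T lineage factors and over all windows. Irf8 (37.5%), Spib (32.1%) and Pou2af1 (24.4%) had the tallest red bars, and the red bar of all windows stood at 0.913%.

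The 3 short loci had the densest differences. At Irf8 17 of 40 windows were called (42.5%), at Spib 10 of 28 (35.7%) and at Pou2af1 13 of 45 (28.9%). The long loci had lower shares, with 12 of 116 at Bcl11a (10.3%), 30 of 392 at Ebf1 (7.65%), 15 of 203 at Pax5 (7.39%) and 7 of 113 at Pou2f2 (6.19%). Called higher in B at these long loci were 7 windows of Ebf1, 3 of Pax5, 1 of Pou2f2 and 1 of Bcl11a. Over the genome 1.16% of windows were called higher. Pooled over a whole locus, Spib, Irf8 and Pou2af1 were lower in B by 19.7, 18.3 and 16.3 points, Bcl11a by 7.19, Pou2f2 by 3.73 and Ebf1 by 1.32. Pax5 was the exception and stood 2.68 points higher in B, with 67.8% and 66.98% in the female and male B files and 64.7% and 64.7% in the T files.

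**Figure D2:**
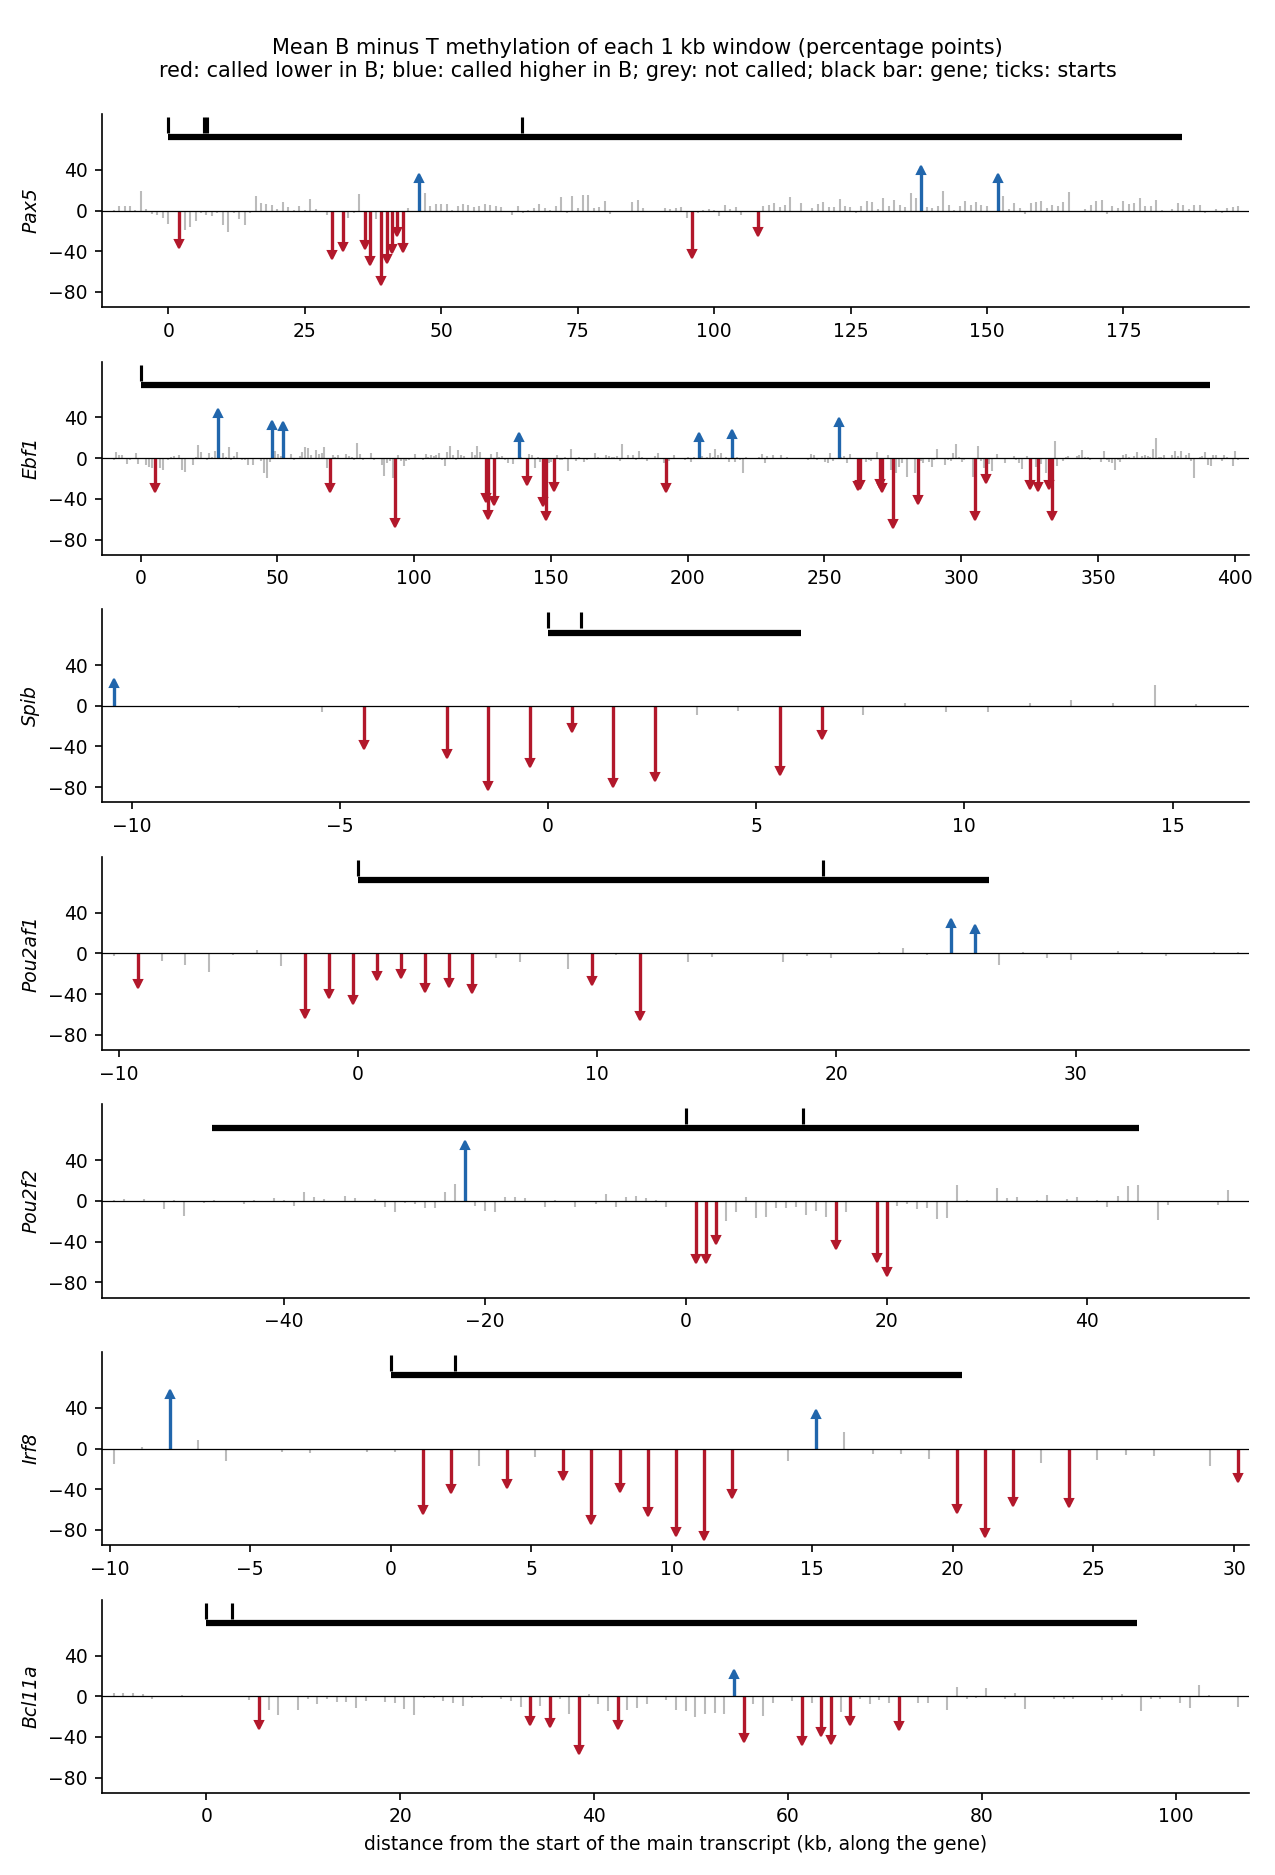
Mean B minus T methylation of each tested 1 kb window (vertical axis, percentage points) against distance from the start of the main transcript (horizontal axis, kb along the gene), for the 7 loci from top to bottom. Red lines with arrows down are windows called lower in B, blue lines with arrows up are called higher in B, grey lines were not called, the black bar is the gene and ticks are annotated starts. Called windows cover the start regions of Spib and Pou2af1 and lie inside Pax5, Ebf1 and Bcl11a.

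The sequences that carried the differences were read from the RefSeq genome and promoter table of GRCm38, which held a promoter for all 7 genes. For Pax5, Ebf1, Irf8, Pou2af1 and Pou2f2, the 300 bases with the largest mean difference, among stretches with at least 3 CpGs and no annotated UTR, are shown from the window that led the differences lower in B. For Bcl11a they come from the next window, since its leading one held no such stretch. For Spib the 250 bases directly before its main start are shown instead, since its leading window lies over Pold1. That choice and a further pair of stretches, a piece of the CpG-rich window of Pax5 that was higher in B and the 250 bases before the called second start of Irf8, were chosen after their values were seen. Capitals mark the CpGs measured in all 4 files, and each sequence runs 5′ to 3′ along its gene.
Pax5 intron 5, chr4:44671508-44671807, minus strand: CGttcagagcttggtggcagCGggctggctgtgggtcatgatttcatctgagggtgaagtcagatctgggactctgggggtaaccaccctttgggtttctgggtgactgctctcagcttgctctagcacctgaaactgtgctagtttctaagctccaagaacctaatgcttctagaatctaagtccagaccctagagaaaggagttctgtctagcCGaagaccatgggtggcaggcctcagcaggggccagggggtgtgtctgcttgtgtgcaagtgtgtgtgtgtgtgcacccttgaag
Pax5 intron 5 island, chr4:44664001-44664300, minus strand: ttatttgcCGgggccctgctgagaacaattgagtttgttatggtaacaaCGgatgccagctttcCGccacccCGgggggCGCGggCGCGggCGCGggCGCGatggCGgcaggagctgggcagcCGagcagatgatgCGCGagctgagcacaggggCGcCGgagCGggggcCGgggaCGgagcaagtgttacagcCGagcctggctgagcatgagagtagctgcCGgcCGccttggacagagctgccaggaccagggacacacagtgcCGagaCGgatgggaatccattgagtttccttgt
Ebf1 intron 8, chr11:44892001-44892300, plus strand: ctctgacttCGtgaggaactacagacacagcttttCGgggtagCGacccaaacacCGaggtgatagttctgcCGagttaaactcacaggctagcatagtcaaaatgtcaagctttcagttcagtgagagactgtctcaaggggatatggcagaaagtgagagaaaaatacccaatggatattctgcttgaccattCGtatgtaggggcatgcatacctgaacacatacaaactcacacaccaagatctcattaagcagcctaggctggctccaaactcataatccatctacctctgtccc
Spib promoter, chr7:44532072-44532321, minus strand: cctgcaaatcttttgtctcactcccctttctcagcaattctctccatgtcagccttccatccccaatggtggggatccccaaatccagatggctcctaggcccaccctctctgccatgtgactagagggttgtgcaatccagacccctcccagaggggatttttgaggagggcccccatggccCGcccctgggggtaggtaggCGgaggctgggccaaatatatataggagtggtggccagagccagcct
Irf8 around exon 5, chr8:120747165-120747464, plus strand: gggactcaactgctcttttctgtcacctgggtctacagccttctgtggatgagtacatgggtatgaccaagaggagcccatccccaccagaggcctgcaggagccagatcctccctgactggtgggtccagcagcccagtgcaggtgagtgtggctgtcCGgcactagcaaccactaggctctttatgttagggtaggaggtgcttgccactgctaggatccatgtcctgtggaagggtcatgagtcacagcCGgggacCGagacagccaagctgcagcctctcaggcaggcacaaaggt
Irf8 second start, chr8:120738389-120738638, plus strand: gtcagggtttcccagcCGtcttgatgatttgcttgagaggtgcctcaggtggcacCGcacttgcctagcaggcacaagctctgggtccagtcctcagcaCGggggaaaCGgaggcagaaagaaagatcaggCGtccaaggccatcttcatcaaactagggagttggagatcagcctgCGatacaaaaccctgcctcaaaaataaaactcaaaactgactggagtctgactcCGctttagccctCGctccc
Pou2af1 intron 1, chr9:51225454-51225753, plus strand: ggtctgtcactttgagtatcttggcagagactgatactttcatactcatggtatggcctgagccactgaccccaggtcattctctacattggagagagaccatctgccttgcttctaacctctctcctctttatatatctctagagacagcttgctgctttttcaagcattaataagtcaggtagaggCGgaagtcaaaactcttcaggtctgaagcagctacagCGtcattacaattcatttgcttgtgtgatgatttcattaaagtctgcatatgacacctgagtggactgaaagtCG
Pou2f2 intron 5, chr7:25112587-25112886, minus strand: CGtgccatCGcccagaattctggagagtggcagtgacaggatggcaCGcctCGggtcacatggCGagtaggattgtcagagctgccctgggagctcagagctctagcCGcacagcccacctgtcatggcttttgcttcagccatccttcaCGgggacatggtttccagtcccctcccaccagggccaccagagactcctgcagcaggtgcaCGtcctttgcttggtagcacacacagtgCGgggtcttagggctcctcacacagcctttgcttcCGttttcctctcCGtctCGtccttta
Bcl11a intron 2, chr11:24139051-24139350, plus strand: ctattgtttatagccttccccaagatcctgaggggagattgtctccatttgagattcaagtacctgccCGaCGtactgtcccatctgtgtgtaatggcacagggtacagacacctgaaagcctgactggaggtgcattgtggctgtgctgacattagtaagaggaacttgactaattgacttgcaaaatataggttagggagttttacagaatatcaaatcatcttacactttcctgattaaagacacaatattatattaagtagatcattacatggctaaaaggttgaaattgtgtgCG
The stretches were picked for the size of their difference or, for Spib and the second start of Irf8, as promoters of called starts, so their levels are a description. Over the 3 CpGs of the Pax5 piece, levels were 1.72% in female B, 2.82% in male B, 91.9% in female T and 89.0% in male T. The 6 CpGs of the Ebf1 piece gave 2.94%, 3.10%, 97.1% and 94.4% in the same order. Both CpGs of the Spib promoter, with 17 to 44 reads a file, were near 0 in B (5.88% and 2.27%) and near full methylation in T (95.8% and 93.5%). The 12 CpGs of the Pou2f2 piece differed as widely, with 3.93% and 1.28% in B and 94.2% and 94.0% in T. The Bcl11a piece differed less, with 24.1% and 12.9% in B and 80.5% and 85.3% in T, and the 8 CpGs before the second start of Irf8 had 61.8% and 59.0% in B and 95.5% and 97.0% in T. Few CpGs were involved in most of these stretches, with 3 in each of the Pax5, Irf8, Pou2af1 and Bcl11a pieces. The Pax5 island ran the other way, with 51.5% and 48.5% over 26 CpGs in B and 2.36% and 3.42% in T.

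EBF1 is the earliest of these factors to commit cells to the B lineage. The Ebf1 gene (ENSMUSG00000057098, chr11:44617317-45008091, plus strand) spans 391 kb, and the start shared by its 3 coding transcripts was under 4% in all 4 files. The level there was 0% of 271 reads in female B, which allows up to 1.11%, 0.223% in male B, 3.81% in female T and 1.19% in male T, over 25 CpGs. That start was not called (-2.39 points, adjusted p = 0.0608). All 30 called windows of the locus lay in introns, in 25 separate blocks, a block being adjacent called windows of the same sign, of which 18 were lower and 7 higher in B. Lower blocks clustered 127 to 151 kb and 263 to 333 kb past the start, in intron 6 and in introns 7 to 10. The largest difference lay in intron 8 at chr11:44892001-44893000, 275 kb past the start. Its 14 CpGs stood at 10.9% (95% Wilson interval 7.15 to 16.2) in female B and 6.72% (4.18 to 10.6) in male B, and at 78.2% (72.6 to 83.0) in female T and 68.7% (62.9 to 73.9) in male T. In intron 10, at chr11:44950001-44951000, levels were 4.38% and 4.98% in B and 60.9% and 62.3% in T. In intron 6, at chr11:44710001-44711000, they were 29.5% and 30.6% in B and 96.7% and 91.6% in T, over 5 CpGs. The B and T files did not overlap in any of these 3 windows. Windows were named by the smaller of their female and male differences, so this is largely set by the choice. Wilson intervals and the limits for 0 cover counting error only.

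A few other parts of Ebf1 were more methylated in B, with 7 of 392 windows called higher, where 1.16% of all windows were. The window at chr11:44645001-44646000, in intron 6 and 28.2 kb past the start, had 92.2% and 92.9% in the female and male B files and 47.9% and 48.3% in the T files. In intron 7, at chr11:44872001-44873000, both B files were near 93% and both T files stood at 57.1%. In both windows B cells were close to fully methylated and T cells intermediate, the reverse of the lower window in intron 6.

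PAX5 maintains B cell identity throughout the life of the cell until plasma cell differentiation. Its gene (ENSMUSG00000014030, chr4:44524757-44710487, minus strand) had 4 distinct coding starts. At the main start, used by 11 transcripts, 37 CpGs stood at 4.26% in female B and 5.25% in male B against 20.9% in female T and 20.4% in male T. Both B files were below both T files (-15.9 points, adjusted p = 2.35e-07), and the size was under the 20 points set for a call. A pair of further starts, 6.48 and 7.07 kb downstream in a CpG-rich stretch, were below 7% in all 4 files. They were still lower in B, at 0.739% and 0.821% against 2.53% and 3.19% (adjusted p = 0.000559), and at 1.40% and 0.956% against 6.26% and 5.12% (adjusted p = 1.2e-06). The regions of this pair overlap, so their results share reads. The most distal start, that of transcript Pax5-220 at 64.8 kb, was methylated at 89.2 to 90.4% in every file, with a difference of -0.79 points that did not pass (adjusted p = 0.922).

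All 15 called windows of Pax5 lay in introns, 12 of them lower in B. A B cell enhancer of Pax5 is known in intron 5, and most of the 12 fell there or in intron 4, in 4 blocks centred 29.99 to 41.0 kb past the start. The longest block was 5 kb, chr4:44667001-44672000 in intron 5, with 47.8% and 44.6% in female and male B and 87.3% and 87.2% in the T files over 56 CpGs. Its deepest window, chr4:44671001-44672000, reached 12.3% (7.46 to 19.6) in female B and 9.55% (6.05 to 14.8) in male B, while the T files stood at 81.7% (75.8 to 86.4) and 79.1% (73.1 to 83.97). Nearby, at chr4:44673001-44674000, B files were at 18.6% and 22.8% and T files at 72.7% and 68.2%. The non-coding genes Gm12462 and 4930517J16Rik are annotated over parts of this stretch. About 2 kb past the main start, in intron 1, a lone window was also lower in B (48.1% and 31.2% against 69.4% and 74.8%).

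At Pax5 3 of 203 windows were called higher in B, where 1.16% of all windows were, and 1 of them lay in the same intron 5. The window at chr4:44664001-44665000, 46.0 kb past the start, had 86 measured CpGs, the most of any named window. It stood at 35.8% (32.8 to 38.8) in female B and 37.5% (34.98 to 40.2) in male B, and at 4.83% and 4.69% in the female and male T files. In intron 8 a window of 38 CpGs at chr4:44558001-44559000 had 48.6% and 45.9% in B and 14.5% and 16.4% in T. Another, at chr4:44572001-44573000 in intron 7, had 76.6% and 72.3% in B and 33.3% and 36.4% in T. Across the Pax5 locus, B was above T in both sexes in 116 of 203 windows and below in 45, at any size and without a test. The share over all windows of the genome was not computed, so these counts describe the locus alone.

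SPIB acts in B cell receptor signalling and germinal centres. Spib (ENSMUSG00000008193, chr7:44525993-44532071, minus strand) is the shortest of the 7 genes at 6.08 kb. Its main start was called: the 7 CpGs within 500 bases stood at 26.7% (18.5 to 36.9) in female B and 21.6% (15.8 to 28.9) in male B, and at 72% (64.3 to 78.6) in female T and 77.6% (70.4 to 83.5) in male T (-50.6 points, adjusted p = 4.46e-07). Without the male B or the male T file the difference was -48.1 or -47.8 points and was not called. The other start, 0.795 kb further along, was lower in B by 18.6 points, with 10.5% and 5.51% in B and 22.3% and 30.9% in T (adjusted p = 0.00642), short of the 20 points. The regions of both Spib starts overlap. A block of 6 kb, chr7:44529001-44535000, ran from exon 4 through the start into the upstream flank and averaged 16.1% and 17.4% in the B files and 79.2% and 82.0% in the T files. Its upstream window, chr7:44533001-44534000, was the widest difference of the gene, with 15.7% and 19.5% in B and 97.4% and 96.2% in T, over 37 CpGs and 407 to 804 reads a file. Pold1, a DNA polymerase gene, is annotated over this upstream part. In the first kb past the start T cells were less methylated, and chr7:44531001-44532000 had 16.2% and 13.2% in B and 32.4% and 40.1% in T. A block of 2 kb at the end of the gene, chr7:44525001-44527000, covered 1008 bases of the 3′ UTR in exon 6 and beyond, with 28.2% and 29.5% in B and 74.6% and 71.4% in T. In 2 windows of Spib, both B files were under 20% and both T files over 80%.

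IRF8 acts in B cells as well as in myeloid and dendritic cells. Irf8 (ENSMUSG00000041515, chr8:120736358-120756694, plus strand) had the highest share of called windows. Its main start, over 62 CpGs, was under 2% in every file, at 0.3003% and 0.554% in the B files and 1.89% and 1.47% in the T files (-1.25 points, adjusted p = 0.103). The other start, that of transcript Irf8-205, 2.28 kb downstream, was called, with 59.7% (53.0 to 66.1) in female B, 59.8% (53.1 to 66.2) in male B, 95.7% (93.0 to 97.3) in female T and 97.8% (95.5 to 98.9) in male T (-37.0 points, adjusted p = 4.88e-09). Most called windows inside the gene were lower in B. A block of 7 kb, chr8:120742001-120749000, covered exons 3 to 6 and stood at 32.6% and 29.8% in B against 90.7% and 91.5% in T. At chr8:120747001-120748000, around exon 5, levels were 6.34% and 5.92% in B and 92.0% and 92.0% in T, which was the largest difference of any window of the 7 genes. The neighbouring window had 13.5% and 11.9% in B and 94.4% and 94.4% in T. In intron 6, at chr8:120751001-120752000, the sign was the reverse over 18 CpGs, with 77.2% and 78.7% in B and 41.2% and 46.7% in T.

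Past the end of Irf8 the difference was as wide. A block of 3 kb, chr8:120756001-120759000, took in 694 bases of the 3′ UTR in exon 9 and the flank, with 26.9% and 27.4% in B and 96.5% and 94.1% in T. Its window at chr8:120757001-120758000, outside the gene, had 12.4% and 12.8% in B and 97.1% and 93.5% in T. A further window 24.1 kb past the start was at 2.37% and 6.54% in B and 58.4% and 57.1% in T. Upstream a window was also higher in B, and at chr8:120728001-120729000, 7.86 kb before the start, B files were at 97.0% and 95.1% and T files at 38.3% and 45.9%. The non-coding gene Gm20388 is annotated over all called windows of this locus. In 3 windows of Irf8 both B files were under 20% and both T files over 80%. With the 2 of Spib these made 5 of 937 windows of the 7 genes (0.534%), and over the genome 238 of 2018320 did so (0.0118%).

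**Figure D3:**
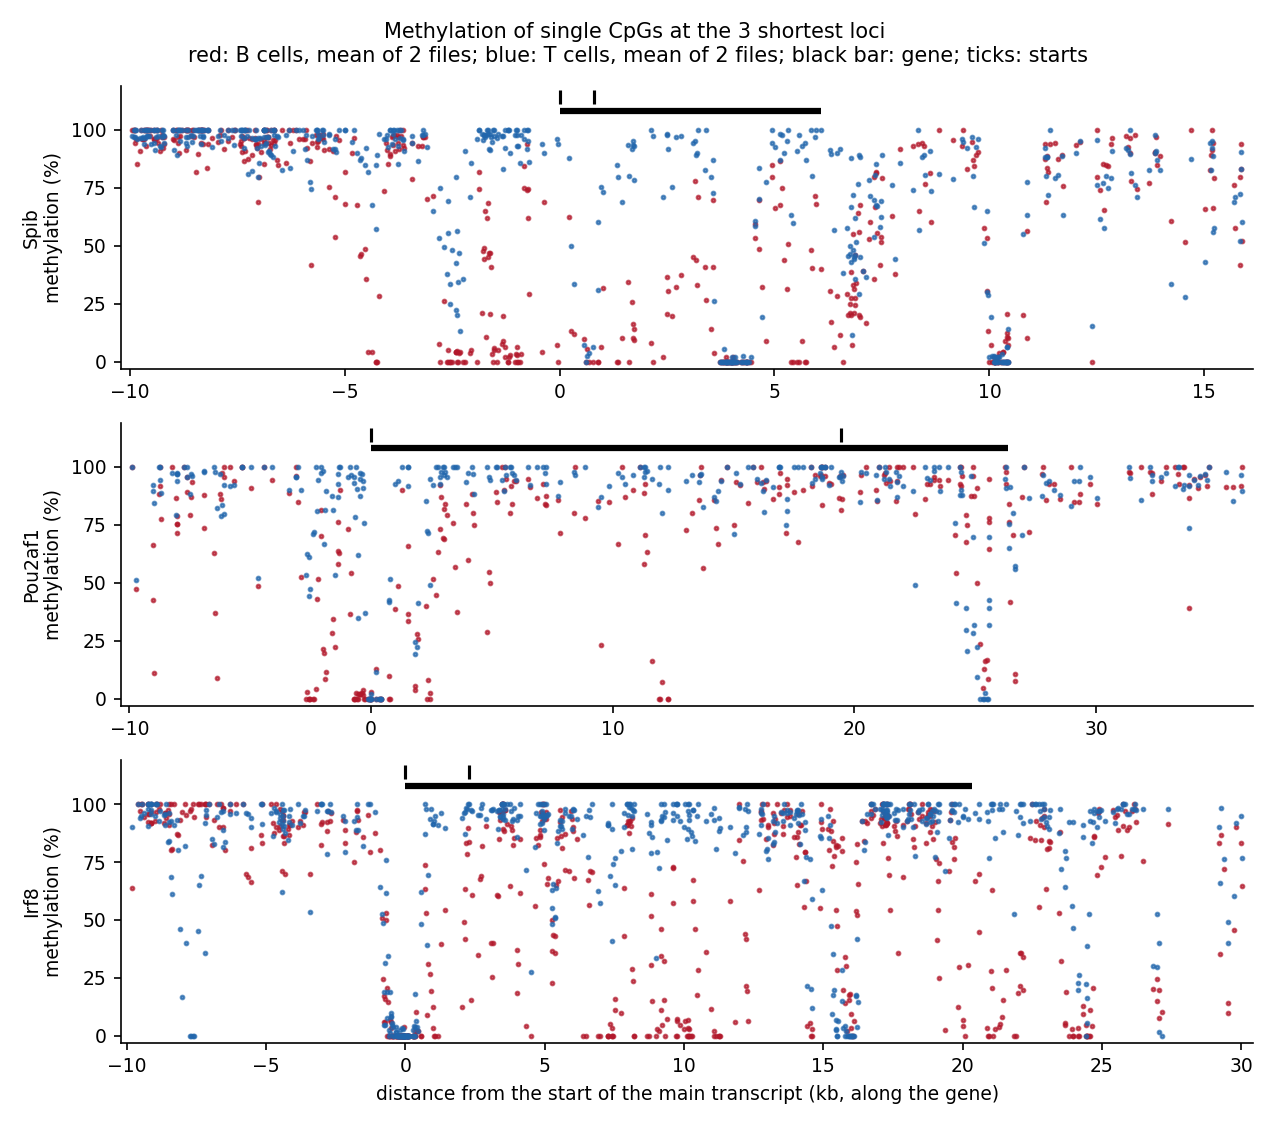
Methylation of single CpGs (vertical axis, %) against distance from the main start (horizontal axis, kb along the gene) at Spib, Pou2af1 and Irf8, from top to bottom. Each CpG has a red point for the mean of the 2 B files and a blue point for the mean of the 2 T files, the black bar is the gene and ticks are starts. Just before the Spib start, and between about 6 and 12 kb into Irf8, many red points lie at or near 0 while blue points lie mostly above 75%. In the first kb past the Spib start T levels were lower, at 32.4% and 40.1% over the window chr7:44531001-44532000.

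POU2AF1 is required for germinal centres. Pou2af1 (ENSMUSG00000032053, chr9:51213708-51240080, plus strand) had its main start called, with 2.00% and 0.959% in the female and male B files and 30.4% and 32.8% in the T files over 21 CpGs (-30.1 points, adjusted p = 4.91e-10). The 250 bases directly before the RefSeq start were low in every file (0% and 0% in B, where 0 of 96 and 0 of 104 reads were methylated, and 9.41% and 5.56% in T, over 5 CpGs). A block of 8 kb, chr9:51211001-51219000, the longest of the 7 genes, ran from the upstream flank through exon 1 into intron 1 and averaged 30.9% and 28.2% in B against 70.2% and 70.2% in T. Within it, the window over the start, chr9:51213001-51214000, had 1.75% and 1.27% in B and 49.4% and 44.8% in T, and the window 2.21 kb before the start had 23.2% and 15.4% in B and 79.3% and 79.4% in T. The strongest difference lay in intron 1 at chr9:51225001-51226000, 11.8 kb past the start, with 36.1% and 30% in B and 95.7% and 94.2% in T. The start of transcript Pou2af1-202, 19.4 kb downstream, was methylated in all files (89.2% and 91.2% in B, 94.7% and 97.1% in T) and did not pass (-5.79 points, adjusted p = 0.307). The last exon went the other way. Over exon 5, mostly 3′ UTR, a block of 2 kb at chr9:51238001-51240000 had 67.9% and 73.8% in B and 42.8% and 43.8% in T. Its window at chr9:51239001-51240000 fell under the 20 points as a mean of single CpG levels (17.3 points) and without the male B file (19.6 points).

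POU2F2 supports survival and proliferation of B cells after activation. Pou2f2 (ENSMUSG00000008496, chr7:25087344-25179726, minus strand) had its main start, common to 8 coding transcripts, under 3% in all files (0.655% and 0.924% in B, 1.56% and 2.32% in T, adjusted p = 0.396). Directly past it both cell types differed. A block of 3 kb in intron 1, chr7:25129001-25132000, stood at 11.5% and 13.1% in B and 61.5% and 64.9% in T over 56 CpGs. In intron 5, chr7:25112001-25113000 had 27.3% and 23.4% in B and 95.04% and 94.9% in T, the largest difference of the gene. The other start, that of Pou2f2-207 at 11.7 kb, was intermediate in every file (17.7% and 24.3% in B, 21.5% and 29.7% in T), with a difference of -4.58 points that did not pass (adjusted p = 0.624). There the male files were above the female files in both cell types, and the ranges of the cell types overlapped. The window higher in B, chr7:25154001-25155000, lay inside the annotated gene but 22.0 kb before the main coding start, under the non-coding gene D930028M14Rik, with 86.6% and 90.8% in B and 42.1% and 25.7% in T.

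BCL11A is also known as a repressor of fetal globin genes in red cells. Both starts of Bcl11a (ENSMUSG00000000861, chr11:24078056-24174123, plus strand) were under 2% in all 4 files. At the main start levels were 0% of 232 reads in female B, 0% of 196 in female T, 0% of 223 in male B and 0.885% in male T. The zeros allow up to 1.29%, 1.53% and 1.35%. The other start, 2.61 kb downstream, was at 1.81% and 0.183% in the female and male B files and 0.984% and 0.701% in the T files (0.15 points, adjusted p = 0.986). All 12 called windows lay in introns and 11 were lower in B, 10 of these between 33.4 and 71.4 kb past the start in intron 2. The window at chr11:24139001-24140000 had 26.5% and 27.6% in B and 68.6% and 74.2% in T over 11 CpGs. A window at chr11:24116001-24117000 had 23.3% and 36.1% in B and 75.3% and 89.2% in T, on only 4 CpGs and 43 to 85 reads a file, so its intervals reached 24.6 points. In the window at chr11:24133001-24134000 B cells kept an intermediate level (52.0% and 49.5%) and T cells were high (93.2% and 90.4%). Its direct neighbour, chr11:24132001-24133000, was called higher in B with 81.8% and 61.2% in B and 51.9% and 47.1% in T, and the difference without the female B file was 11.7 points, below the threshold.

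**Figure D4:**
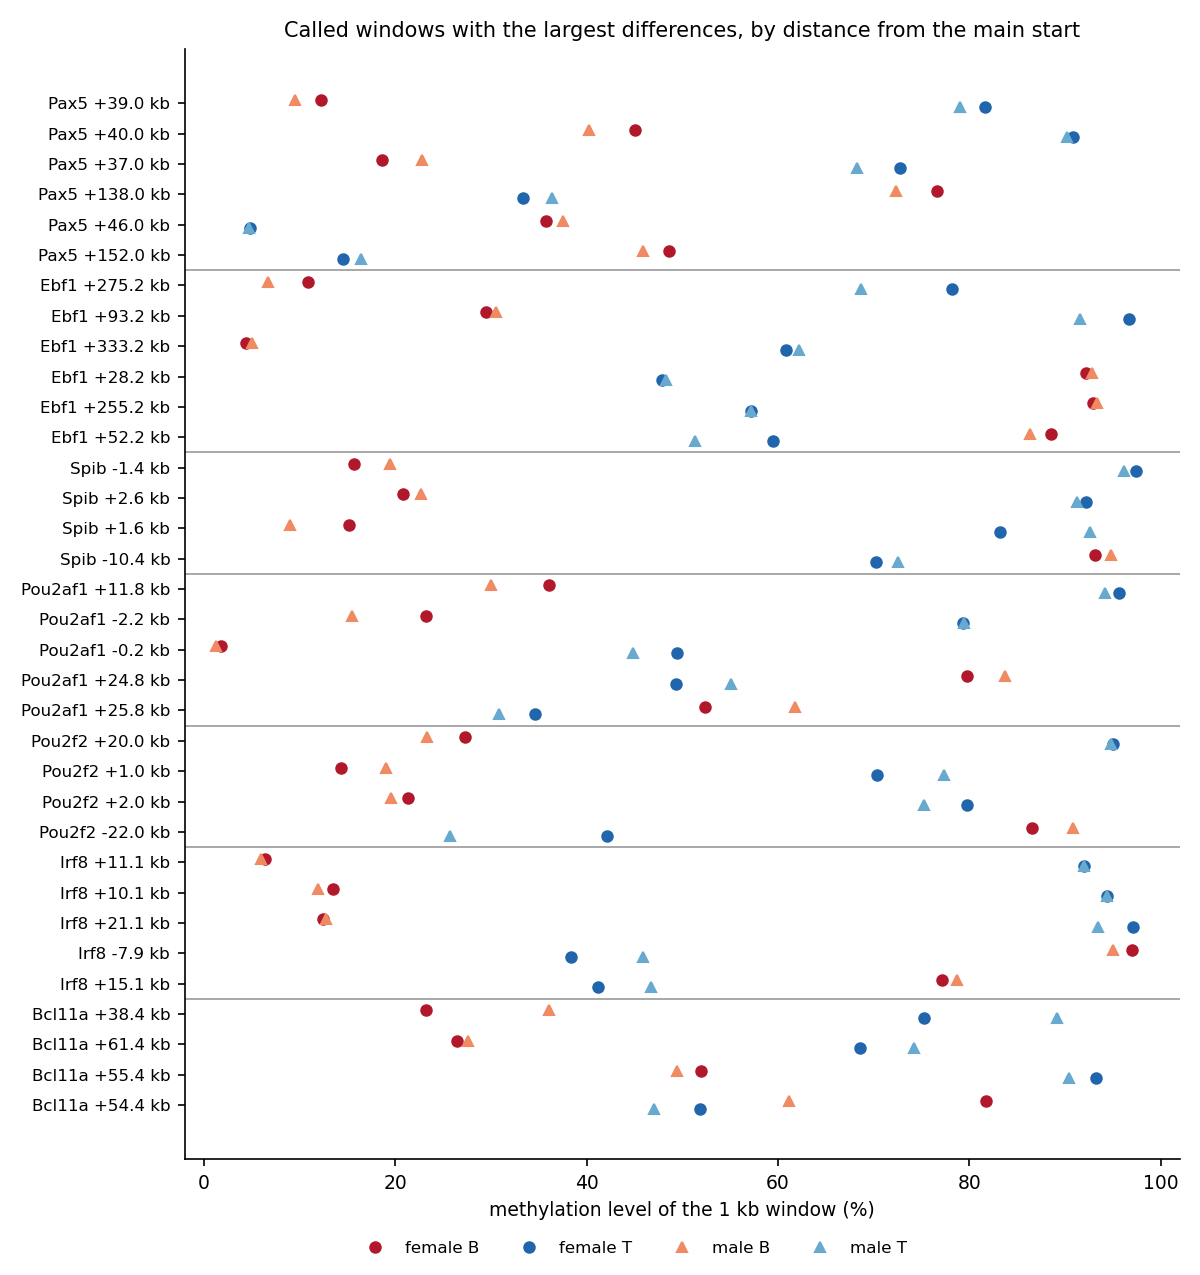
Methylation level (horizontal axis, %) of the 34 named windows in the 4 files, grouped by gene and labelled by distance from the main start in kb. Red circles are female B, orange triangles male B, blue circles female T and light blue triangles male T. In each window both B points lie on the same side of both T points, which the choice of called windows with large differences makes likely.

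Taking the starts of the 7 genes as a set, 3 of 15 were called, all lower in B, against 2.15% of all 31828 start regions of protein-coding genes called in either direction and 1.06% called lower in B. The called starts were those of Spib, Pou2af1 and the downstream start of Irf8. At 7 of 15 starts every file was under 20%, and at 2 of 15 every file was over 80%. Start regions overlap for a pair of Pax5 starts and for both Spib starts, so the 15 are not fully separate. The main starts of Ebf1, Pou2f2, Irf8 and Bcl11a fell in the low group, and the called windows of these genes lay outside the 500 bases around it. The model took its spread from the 21400 start regions with enough reads of each kind, and 0 of 15 were called when it came from all of them. With limma on log2 ratios 0 of 15 passed after adjustment, while 11 of 15 had an unadjusted p under 0.05, against 13.1% of all starts. Differences at the 3 called starts were 30.1, 37.0 and 50.6 points, lower in B. They were seen in both sexes, which the call on the mean of both sexes makes likely. Without the male B or the male T file 2 of the 15 were called, and the count over all start regions fell from 685 to 159 or 196.

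**Figure D5:**
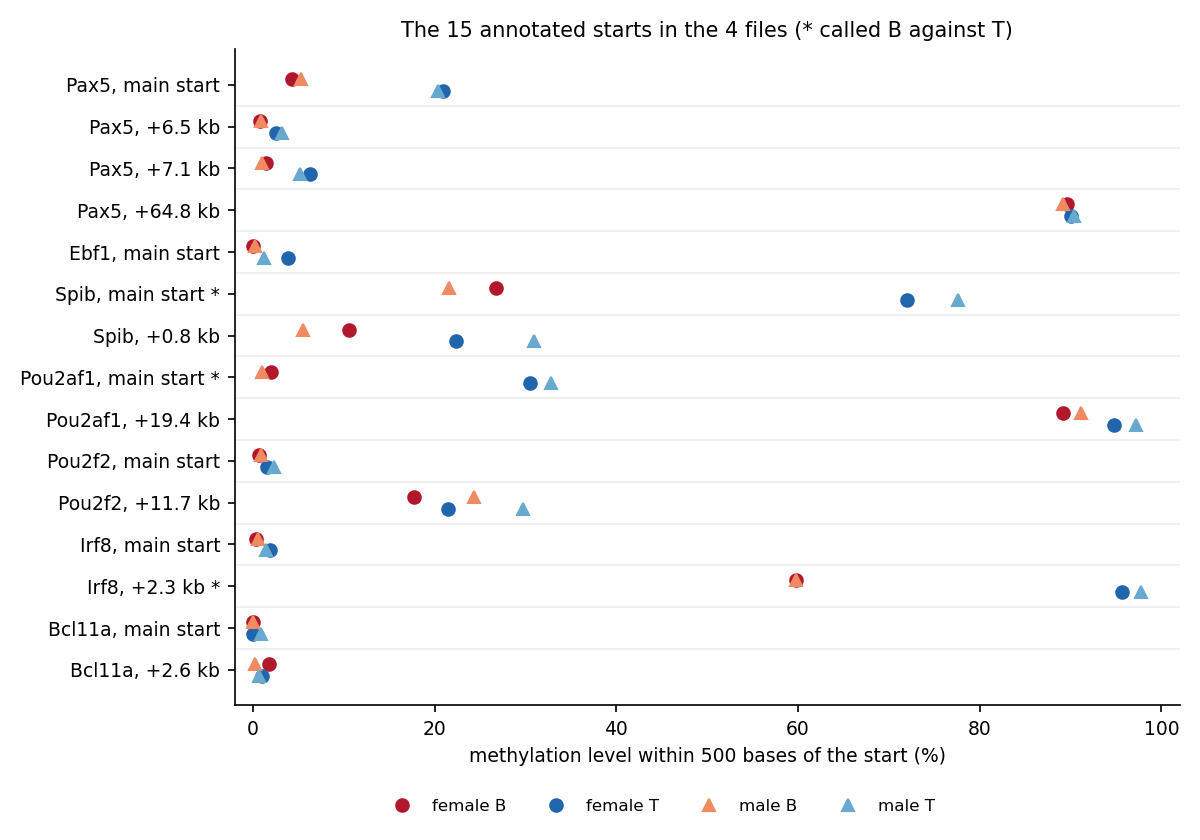
Methylation level within 500 bases of each of the 15 annotated starts (horizontal axis, %) in the 4 files, with starts in rows labelled by distance from the main start in kb and an asterisk for those called B against T. Red circles are female B, orange triangles male B, blue circles female T and light blue triangles male T. At the main start of Spib the B points lie at 21.6 and 26.7% and the T points at 72 and 77.6%.

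By position, introns held most of the called and most of the tested windows. Of 692 windows in introns 74 were called (10.7%), 61 of them lower in B. Within 1 kb of a start 10 of 38 were called, all lower in B, and these belonged to Spib, Pou2af1, Irf8 and Pou2f2. Of windows over exons 10 of 77 were called, of the upstream flanks 6 of 63 and of the downstream flanks 4 of 67, all 4 at Irf8. Shares by position were not computed over the genome, so these counts describe the 7 genes alone. The 104 windows formed 67 blocks. Of the 51 blocks lower in B, 4 were 5 kb or longer (7.84%), those of Pou2af1, Irf8, Spib and Pax5, whereas over the genome 51 of 15288 such runs were (0.334%). Of the 16 blocks higher in B none exceeded 2 kb, and over the genome 138 of 18950 higher runs were 5 kb or longer (0.728%). With so few higher blocks the lack of long ones tells little. In 51 of the 87 lower windows both T files were over 80%, and in 19 both B files were under 20%. Of the 17 higher windows, both B files were over 80% in 7 and both T files under 20% in 2.

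At single CpGs, 523 of 11526 (4.54%) differed by 50 points or more with both B files below both T files, against 0.414% of all 18714703 CpGs. A further 110 (0.954%) had both B files above both T files, against 0.557% of all. At Spib the counts were 90 and 0 of 537 CpGs, at Irf8 124 and 18 of 677, and at Pax5 57 and 40 of 2822. Of the 1363 CpGs inside called windows, 452 were lower in B by this measure, so a called window also held CpGs that differed less. These counts carry no test.

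Letters of known binding motifs were searched on both strands of the 1 kb windows. The EBF core CCCNNGGG was present in 28 of 87 windows lower in B (32.2%), in 165 of 833 uncalled windows of the same genes (19.8%) and in 16.2% of all tested windows. The octamer ATTTGCAT, the site of POU2F2, was in 11 of 87 (12.6%) against 7.44% of uncalled windows and 7.88% of all. The E box CAGGTG was in 55 of 87 (63.2%) against 49.5% and 48.0%. The PU.1 core GAGGAAG, of the ETS family that includes SPIB, was in 34.5% against 28.5% and 27.6%, the RUNX core TGTGGTT in 23.0% against 21.4% and 21.6%, and the TCF core CTTTGAT in 12.6% against 15.01% and 18.2%. The 87 windows had a median G and C content of 46.9% and the uncalled ones of 45.3%, and the part of this in the motif shares was not tested. Of the sequences printed above, only the Spib promoter and the Pax5 island hold the EBF core, and the island is higher in B. The lower pieces of Pax5, Pou2af1, Pou2f2, Irf8 and Bcl11a and the second start of Irf8 hold the E box. The Ebf1 piece holds none of these motifs. Among all windows of the genome called lower in B, the EBF core was in 33.8%, the octamer in 8.65% and the E box in 55.1%. The PU.1 core was in 39.0% of them, the RUNX core in 24.7% and the TCF core in 14.9%. For the EBF, PU.1, RUNX and TCF cores the share at these genes was no higher than at lower windows in general. In the 17 windows higher in B, the E box was in 10, the PU.1 core in 8, the RUNX core in 7, the EBF core in 4, and the octamer and the TCF core in 2 each. Over all windows higher in B, these motifs were in 56.8%, 32.7%, 34.3%, 17.1%, 5.12% and 23.1%. A match of letters is a description and does not show binding.

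Other gene lists were read from the same fit. At 12 other regulators of B cells (Ikzf1, Ikzf3, Tcf3, Spi1, Foxo1, Bach2, Irf4, Myb, Ets1, Runx1, Prdm1, Bcl6), many of which T cells also use, 273 of 1390 windows were called (19.6%), 63 lower and 210 higher in B, with a median difference of 0.85 points. Their 2 called starts of 22, downstream starts of Tcf3 and Spi1, were lower in B. At 7 T lineage factors (Bcl11b, Tcf7, Gata3, Lef1, Satb1, Zbtb7b, Tox) 267 of 784 were called (34.1%), 3 lower and 264 higher in B, with a median of 6.89 points. Their 4 called starts of 17, 3 of Satb1 and 1 of Zbtb7b, were higher in B. None of these counts was tested between lists.

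By sex, 0 of 937 windows of the 7 genes were called with the quasi-binomial model or with limma, against 0.00103% of autosomal windows by the model. At an unadjusted p under 0.05 there were 69 by the model and 38 by limma, and over all windows, those of the X chromosome included, the model gave 103484 of 2018320. The limma count by sex over all windows was not computed. Each cell type had 1 file per sex, so a difference between the sexes and a difference between pools cannot be told apart.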

How the data were processed

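Whole-genome bisulfite sequencing of splenic B and T cells gave 1 file for each of 4 groups of 2 samples. The deposited files, made by the authors, hold for each CpG the methylated fraction to 3 decimals and a read count (coverage) of at least 5, with both strands merged, on GRCm38 (mm10). The submitters' processing notes name Trim Galore, FastQC and Bismark 0.13.1, and part of each sample was oxidized, whereas the labels mark these files as plain bisulfite. Methylated reads were recovered as fraction times coverage and rounded, and were whole, within the rounding of the fraction, in 100% of entries. CpGs with 5 reads in all 4 files were summed over 1 kb windows with 3 CpGs, and over 500 bases to either side of starts of protein-coding transcripts (GENCODE M21, starts within 500 bases joined). A quasi-binomial model with terms for cell type and sex was fitted to every region (Python 3.11.15, numpy 2.4.6, scipy 1.17.1), its dispersion squeezed with limma 3.58.1 (R 4.3.3), with a prior from regions with at least 5 expected reads of each kind in every file. Adjusted p-values are Benjamini-Hochberg over all regions, the sex term on autosomes apart from X. The model was tested before use on simulated windows that all had the same dispersion, so the test could not show how calls depend on the prior. It recovered 0.6% of true differences of 10 points, 50.2% of 20 points and 97.4% of 30 points. Genes, lists and rules were chosen with earlier results of these data known. Named windows are the up to 3 per gene and direction with the largest smaller of the female and male differences, and every tested start is given. Replicates within a group could not be compared. For windows the prior had infinite degrees of freedom, so 1 dispersion (1.31) served all windows. The spread between files of a single window then did not enter its p-value, which reflects counting error scaled by that dispersion. For start regions the prior had 22.2 degrees of freedom, so their own spread entered with little weight. Alternatives covered window size and grid, CpG and read minimums, the size threshold, limma, Fisher's exact test, the source of the prior, the sex term, each file left out, the width and set of starts and the mean of single CpGs. The B cell marker list held a further gene that is not reported here.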

Additional observations from a re-analysis of the deposited data

Results flagged for a closer look

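Of 123 results looked at, 1 had opposite signs in the sexes. At the downstream start of Bcl11a (chr11, position 24080670), B minus T came to 0.823 points for the female files and to -0.518 points for the male files. All 4 files were under 2% there, and the difference between the sexes was not tested.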

How the results depend on the processing

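The source of the spread had the largest effect. With a dispersion prior from all windows, 0 windows of the 7 genes were called (0 lower in B) and 0 of all windows, with a smallest adjusted p of 0.0613, and likewise 0 starts of the 7 genes and 0 of all starts, although 327 windows and 10 starts of these genes had an unadjusted p under 0.05. With limma on log2 ratios 20613 of all windows, 13 of all starts and 0 starts of the 7 genes passed. Windows of 500 bp gave 193 calls of 1516 tested at the 7 genes, 157 of them lower in B, and 73162 of 2665470 in all. A threshold of 10 points gave 195 and 147 windows, 84621 in all, and 5 of 1315 called starts. A threshold of 30 points gave 67 and 57 windows, 21016 in all, and 340 starts in all. With the starts of all annotated transcripts 6 of 23 starts of these genes and 1297 of all 49360 were called.

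When each file was left out in turn, windows lower in B at the 7 genes ranged from 84 to 93, all windows from 41018 to 42290, starts of the 7 genes from 2 to 3 and all starts from 159 (without male B) to 508 (without female B), with 196 without male T. The main start of Spib lost its call without male B (-48.1 points) or male T (-47.8 points). The Bcl11a start at 24080670 ranged from -0.66 (without female B) to 0.965 (without male B), and the Pax5 start at 44645723 was at 0.902 points with 1 kb to either side. The higher windows of Spib at 44542001 (19.97 points with 10 reads), Pou2af1 at 51239001 (17.3 as a mean of CpGs, 19.6 without male B) and Bcl11a at 24132001 (16.8 as a mean of CpGs, 19.6 with 10 reads or without male T, 11.7 without female B) fell under the threshold. The Spib start at 44531276 passed with 10 reads (-20.7 points), as a mean of CpGs (-22.8) and with 1 kb (-50.9), which takes in the main start. The cause of the other changes was not tested. For named windows the alternatives read were 10 reads, each file left out and the mean of single CpGs, the last judged by size alone. Of 203 such values 196 kept their side of the threshold. These windows were named for their large differences, and with the prior from all windows none of them was called. Of 42 values of whole loci, 17 moved by more than counting error and 0 changed sign. No paired analysis was possible because the groups share no replicate numbers in the labels and each has 1 file, apart from the comparison of B with T within each sex that the sex term and Fisher's exact test make. Without the sex term 104 windows and 3 starts of the 7 genes were called, with 41470 of all windows and 566 of all starts.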
